A study of Mus musculus with 6 samples.

Results

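The genes described here encode the 4 p38 mitogen-activated protein kinases, Mapk14 (p38α), Mapk11 (p38β), Mapk12 (p38γ) and Mapk13 (p38δ), and upstream MAP2Ks. These MAP2Ks, Map2k3 (MKK3) and Map2k6 (MKK6), phosphorylate p38 kinases, though not each of them every isoform alike. All 6 have a row among the 18943 genes of the expression table. They were chosen by gene symbol, and the set was proposed with the values of ET-3 and NT against DMSO already known, where Mapk13 ranked 4 from the top among 13921 genes under both peptides. Their values against DMSO are therefore given as a description without a test, and only NT against ET-3 is tested for them.

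The RNA came from muscle stem cells (MuSCs), the resident progenitors of skeletal muscle fibres, which were sorted from wild-type C57BL/6 mice, 8 weeks old, and kept in culture until day 5. Cultures received DMSO, the solvent, or 1 of 2 peptide ligands of G protein-coupled receptors, endothelin-3 (ET-3) or neurotensin (NT), each at 100 nM by the labels, whereas the study's methods give higher doses. The series describes its profiles as made in triplicate, whereas 2 libraries per group were analysed here. Neither the number of mice nor a separate culture for each of these libraries is given in the labels, so p-values measure only the spread between these libraries, which may be technical. The values had sums of 4214458 to 4600575. Taken as read counts scaled by 1 factor per library, which was fitted here, they correspond to about 3628952 to 5396233 reads on genes per library. The libraries of a treated pair differed by about the noise of read sampling, a mean chi-square per gene of 0.859 (ET-3) and 0.927 (NT) against 1.48 for the DMSO pair, and whether they are separate cultures cannot be read from the values. All 8 markers of MuSCs on the list used here, among them Pax7, Myf5 and Myod1, were above 0 in every library, with summed values of 7945 to 10465. The sum hides moves in both directions. Pax7 was 857 and 1070 in DMSO and 1599 to 1754 with the peptides. Cdh15 was 1547 and 1746 in DMSO and 436 to 496 with the peptides.

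p38 kinases are the last tier of a relay in which MAP3Ks phosphorylate MAP2Ks, and MAP2Ks phosphorylate p38 on a threonine and a tyrosine of its activation loop. Active p38 then phosphorylates kinases such as MK2 and MSK, RNA-binding proteins and transcription factors, and dual-specificity phosphatases switch it off. In the muscle lineage p38α is known for its part in the exit from quiescence and, through MEF2 factors, E proteins and chromatin remodellers, in the start of differentiation. p38γ has mainly been described in skeletal muscle, whereas p38δ has mainly been described in epithelia, immune cells and pancreas. RNA levels do not report phosphorylation, and no phosphorylated protein was measured here.

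The kinases differ in base sequence even where they are phosphorylated, which is why reads can be assigned to 1 of the 4. The coding stretch around the phosphorylated threonine lies in exon 7 of 12 in each gene and is shown here from GENCODE transcripts on GRCm38, 5′ to 3′ on the coding strand, with the codons of the threonine-glycine-tyrosine motif in capitals. The threonine is residue 180 in Mapk11, Mapk13 and Mapk14, and residue 183 in Mapk12. The stretches lie at chr17:28728387-28728422 for Mapk14, chr15:89145851-89145886 for Mapk11, chr15:89134661-89134696 for Mapk12 and chr17:28776332-28776367 for Mapk13.
Mapk14: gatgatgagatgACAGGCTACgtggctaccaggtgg
Mapk11: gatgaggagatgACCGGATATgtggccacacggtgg
Mapk12: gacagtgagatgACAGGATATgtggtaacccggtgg
Mapk13: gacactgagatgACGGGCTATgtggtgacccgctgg
The 4 stretches spell the motif with 4 different codon strings. Over the aligned coding sequences, identity ran from 66.3% between Mapk13 and Mapk14 to 73.3% between Mapk12 and Mapk13, and was 72.1% between Mapk11 and Mapk14 and 73.8% between Map2k3 and Map2k6. No 75-base stretch of an annotated transcript of any of the 6 genes occurs in another of the 6. For Mapk12, 60 of 4194 such stretches (1.43%) occur in transcripts of other genes, and for the other 5 genes 0 do.

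Mapk14 and Mapk13 lie next to each other on the plus strand of chromosome 17, with 20890 bases between them, at 28691329 to 28748406 and 28769297 to 28780233. Mapk12 (89130584 to 89140703) and Mapk11 (89142486 to 89149628) form a second such pair on the minus strand of chromosome 15, 1782 bases apart. Map2k3 (60932033 to 60952811) and Map2k6 (110399122 to 110525522) are both on the plus strand of chromosome 11. The gene AC170998.1 overlaps Mapk14 on the same strand but shares 0 of its 4376 exonic bases. The promoters of the chromosome 17 pair are shown because these neighbours differed most in their values against DMSO. They are RefSeq sequences on GRCm38.p6, plus strand, from 250 bases before to 50 bases after the start, at chr17:28691092-28691391 for the first start of Mapk14 and chr17:28769067-28769366 for Mapk13, with E-boxes (CANNTG, its own reverse complement) in capitals.
Mapk14: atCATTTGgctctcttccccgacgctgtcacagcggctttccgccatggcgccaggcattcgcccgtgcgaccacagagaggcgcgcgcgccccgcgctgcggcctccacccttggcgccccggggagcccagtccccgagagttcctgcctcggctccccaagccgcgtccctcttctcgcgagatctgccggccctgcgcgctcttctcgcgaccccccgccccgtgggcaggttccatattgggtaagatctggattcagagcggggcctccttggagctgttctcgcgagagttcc
Mapk13: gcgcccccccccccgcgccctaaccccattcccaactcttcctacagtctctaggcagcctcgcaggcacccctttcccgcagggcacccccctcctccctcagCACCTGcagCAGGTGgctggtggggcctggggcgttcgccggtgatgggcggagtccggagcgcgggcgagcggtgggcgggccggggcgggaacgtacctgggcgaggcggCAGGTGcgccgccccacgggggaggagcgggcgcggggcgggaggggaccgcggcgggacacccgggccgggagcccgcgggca
The Mapk13 window holds 3 E-boxes and 34 CpG dinucleotides, and the Mapk14 window 1 E-box and 33 CpGs. Of 32851 promoter windows of this length, 72.3% hold an E-box and 17.6% hold 3 or more, and the median number of CpGs was 7. A match describes letters in a window and not a bound site.

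Mapk14 had the highest and Mapk13 the lowest values of the family with DMSO, also per kb of exon. Mapk14, the isoform found in most tissues, had values of 548 and 567 in DMSO, 687 and 658 in ET-3, and 659 and 668 in the NT libraries. All 4 treated libraries lay above both DMSO libraries, by a ratio of means of 1.21 with ET-3 and 1.19 with NT. On the log2(value + 1) scale, which understates differences of low genes, the difference from DMSO was 0.27 with ET-3 and 0.25 with NT (standard error 0.05). With each library scaled to its total, these differences were 0.36 and 0.36, while the median over all genes moved from -0.01 and -0.01 to 0.08 and 0.10. Mapk14 ranked 4239 and 4386 from the top of the 13921 genes by these differences. Of all genes tested, 30.6% were higher with ET-3 and 29.7% with NT by the adjusted p alone, with its limit at 0.05, and nothing is read from these shares for the members. Mapk14 gives rise to several spliced mRNAs, and gene-level values do not separate them.

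Mapk13 was close to absent with DMSO and well measured with either peptide. Its values were 4 and 7 in DMSO, 294 and 272 in ET-3, and 245 and 275 in the NT libraries. Every treated library stood far above both DMSO libraries, and the ET-3 and NT ranges overlapped. The 2 DMSO libraries together held about 10 reads of the gene, for which the exact 95% Poisson interval is 4.80 to 18.4 and covers counting error only. The ratio of means was 51.5 with ET-3 and 47.3 with NT, and over single pairs of libraries it ran from 38.9 to 73.5 and from 35 to 68.75 (n = 2 per group). The log2 difference was 5.49 with ET-3 and 5.36 with NT (standard error 0.21), and it ranged from 5.15 to 5.83 and from 5.03 to 5.70 with 1 library left out, where the DMSO library left out decided both ends. A pseudocount of 5 in place of 1 gave 4.79 and 4.67. In RNA of whole cultures, more cells with Mapk13 RNA and more of it per cell cannot be told apart.

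Mapk11, the isoform closest to p38α in protein and inhibitor sensitivity, was a minor member throughout. Its values were 73 and 60 in DMSO, 92 and 96 in ET-3, and 84 and 103 in the NT libraries. All treated libraries were above both DMSO libraries. The log2 difference was 0.50 with ET-3 and 0.48 with NT (standard error 0.16).

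Mapk12 alone among the 6 genes had lower mean values with the peptides. Its values were 134 and 135 in DMSO, 131 and 108 in ET-3, and 107 and 115 in the NT libraries. Both NT libraries and both ET-3 libraries lay below the DMSO libraries, the first ET-3 library by only 3 units from the lower of them. The log2 difference was -0.18 with ET-3 and -0.28 with NT (standard error 0.12). Without the first ET-3 library it was -0.31 and without the second -0.038, so its size under ET-3 rests on single libraries. Scaling to library totals gave -0.087 with ET-3 and -0.16 with NT, and the first ET-3 library, at a CPM of 30.3, then lay above both DMSO libraries, at 29.3 each.

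**Figure D1:**
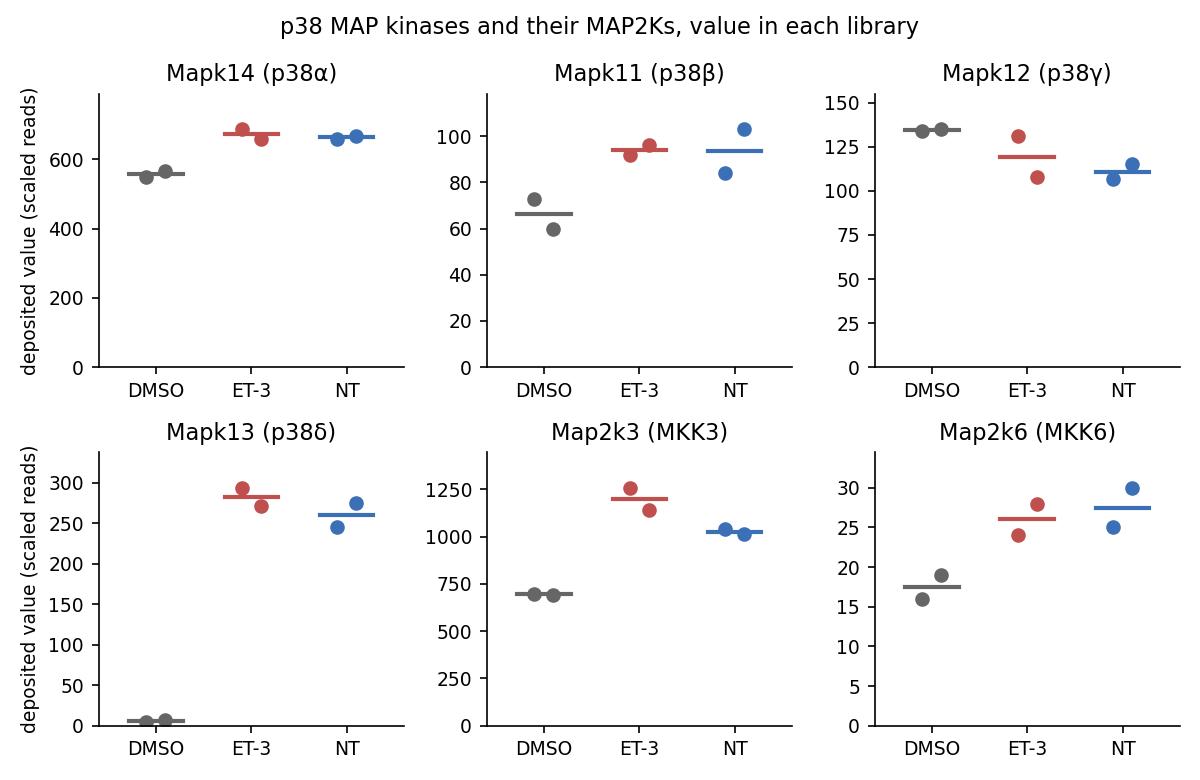
Deposited values (scaled reads, linear axis from 0) of the 6 genes in each library; points are libraries, 2 per group, and horizontal lines are group means. Mapk13 goes from 4 and 7 with DMSO to 245 to 294 with the peptides, Mapk12 is lower with both, and the other 4 genes are higher in every treated library.

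Dividing each value by the exonic length of its gene puts the 4 isoforms on a scale of reads per kb. With DMSO the order was Mapk14 at 127 ± 3.07 per kb, Mapk12 at 35.3 ± 0.186, Mapk11 at 23.0 ± 3.18 and Mapk13 at 1.75 ± 0.673 (SD, n = 2), and no neighbours in this order overlapped. With ET-3 the order was Mapk14 at 154 ± 4.69, Mapk13 at 89.8 ± 4.94, Mapk11 at 32.6 ± 0.980 and Mapk12 at 31.4 ± 4.27. With NT it was 152 ± 1.45, 82.5 ± 6.73, 32.4 ± 4.65 and 29.2 ± 1.49 for the same genes in the same order. Mapk13 thus stood second with either peptide and last with DMSO, whereas Mapk11 and Mapk12 overlapped in the treated libraries and have no order there.

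As a share of the p38 total per kb, Mapk14 held 67.0% and 68.9% in DMSO, 49.6% and 50.4% in ET-3, and 52.7% and 49.9% in the NT libraries. Mapk13 held 0.679% and 1.18% in DMSO, 29.5% and 28.9% in ET-3, and 27.2% and 28.5% in the NT libraries. Mapk14 remained the isoform with the largest share in every library, and Mapk13 took the second place in each treated library. Mapk12 held 18.8% and 18.9% in DMSO, 10.9% and 9.51% in ET-3, and 9.85% and 9.88% in the NT libraries. Mapk11 changed least in share, with 13.5% and 11.1%, then 10.1% and 11.1%, then 10.2% and 11.7%, so that its DMSO and treated libraries overlapped. The share of Mapk12 depends on its length, since its 3805 exonic bases exceed its longest transcript of 1928 bases. With the longest transcript of each gene instead, its mean shares were 27.7%, 16.2% and 15.7%, Mapk13 still stood second with either peptide at 25.3% and 24.1%, and the order of Mapk11 and Mapk12 in treated libraries was Mapk12 above Mapk11.

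**Figure D2:**
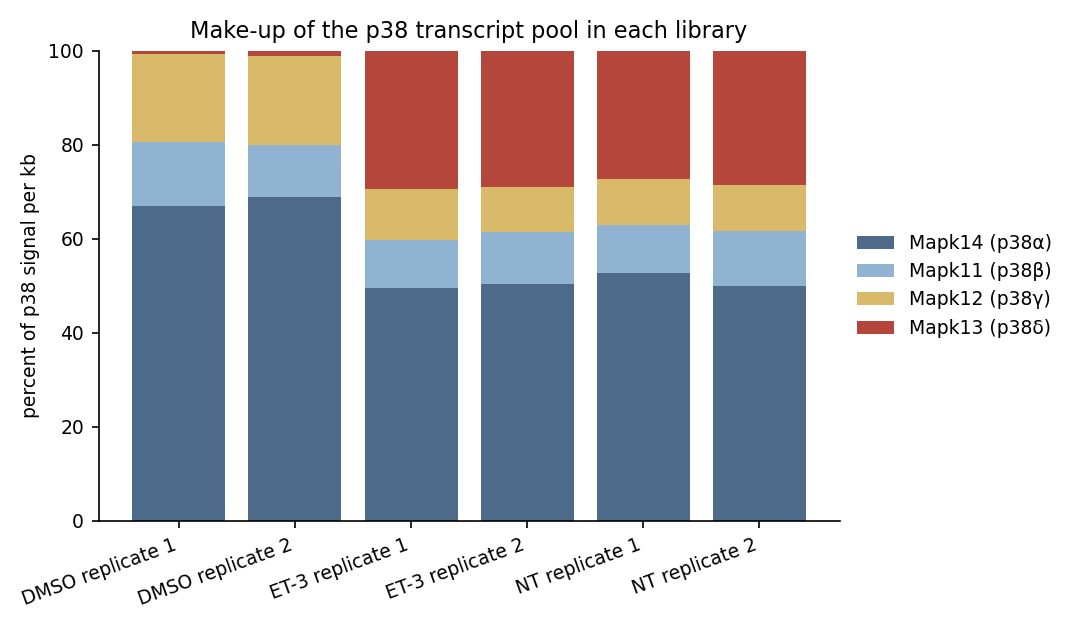
Share of each p38 gene in the sum of the 4 (percent of reads per kb of exon, linear axis from 0 to 100) in each of the 6 libraries. The Mapk13 part is 0.679% and 1.18% with DMSO and 27.2% to 29.5% with the peptides, and the Mapk14 part is the largest in every bar.

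The smaller share of Mapk14 with the peptides did not come with a lower level. The p38 total was 187 and 188 reads per kb in DMSO, 317 and 298 in ET-3, and 286 and 306 in the NT libraries, or 1.64 and 1.58 times the DMSO mean. Of the difference in the total, Mapk13 accounted for 73.4% with ET-3 and 74.7% with NT, and Mapk14 for 21.9% and 22.4%. Mapk11 accounted for 7.94% and 8.64%, and Mapk12 subtracted from it, with -3.29% and -5.71%.

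Of the pair Map2k3 and Map2k6, Map2k3 supplied nearly all of the RNA. Map2k4, which can also phosphorylate p38, is not part of this pair and had values of 573 to 646 over all libraries. Map2k3 had values of 697 and 693 in DMSO, 1258 and 1140 in ET-3, and 1039 and 1012 in the NT libraries. The 3 groups did not overlap, in the order ET-3 above NT above DMSO. The log2 difference from DMSO was 0.78 with ET-3 and 0.56 with NT (standard error 0.05), and 0.87 and 0.67 with each library scaled to its total. Map2k6, which activates all p38 isoforms, had values of 16 and 19 in DMSO, 24 and 28 in ET-3, and 25 and 30 in the NT libraries. The treated libraries lay above the DMSO libraries, and the log2 difference was 0.55 and 0.62, each with a standard error of 0.26. About 33 reads of it were held by the 2 DMSO libraries together (exact 95% Poisson interval 22.7 to 46.3), so its values are coarse. Per kb, Map2k3 made up 97.6% of the pair in DMSO, 97.9% in ET-3 and 97.5% in the NT libraries. Unlike the p38 genes, the MAP2K pair kept its make-up while its total went from 215 per kb in both DMSO libraries to 387 and 352 in ET-3 and 321 and 314 in the NT libraries.

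**Figure D3:**
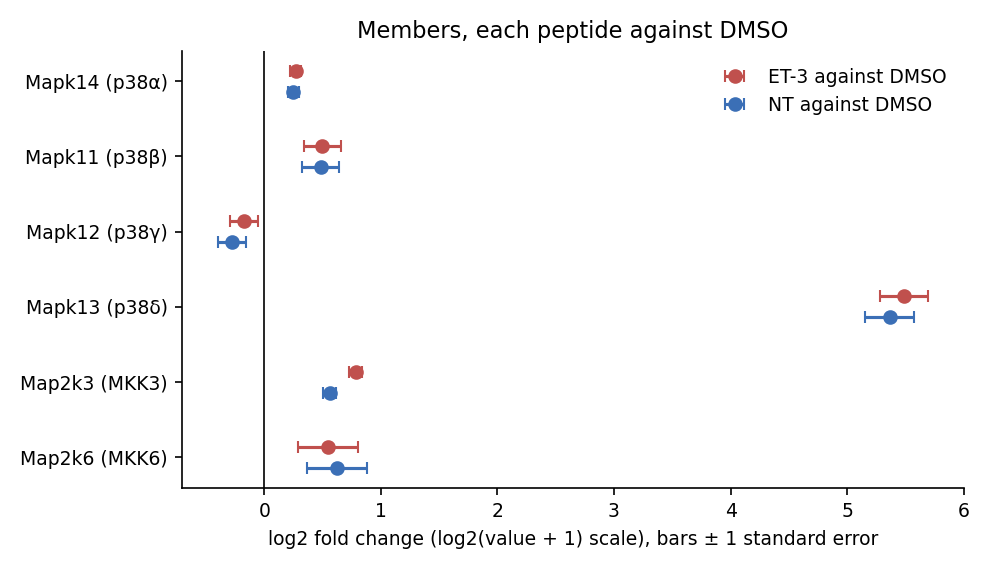
Log2 fold change of the 6 genes with each peptide against DMSO on the log2(value + 1) scale; points are fitted values and bars are ± 1 standard error. Mapk13 lies at 5.49 and 5.36, Mapk12 at -0.18 and -0.28, and the other genes between 0.25 and 0.78.

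Between the peptides, the 6 genes were tested, because they were proposed with their values against DMSO in view. Earlier results of these data were known at that choice, so the test may not be fully independent of it. None of the genes passed the limit of 0.05 on the adjusted p in limma (0 of 6), and 1 of them, Map2k3, had an unadjusted p under 0.05. Of all genes tested, 0.647% were higher and 2.05% lower with NT at that threshold, and with a 2-fold difference in addition 0.0503% and 0.0287%. Map2k3 came nearest, with a log2 difference of NT from ET-3 of -0.22 (95% interval -0.34 to -0.11, Benjamini-Hochberg adjusted p = 0.0567 in limma). This value passed the threshold when libraries were scaled to their upper quartile (adjusted p = 0.0347 from limma), with a pseudocount of 5 (adjusted p = 0.0408 from limma) or, in an alternative chosen after seeing the data, with a filter at a mean of 10 (adjusted p = 0.0358 from limma), and its adjusted p ranged up to 0.712 over the alternatives. Mapk13 differed by -0.12, with a 95% interval from -0.59 to 0.34 (Benjamini-Hochberg adjusted p = 0.802 in limma), and Mapk14 by -0.02 (-0.13 to 0.09, adjusted p = 0.881 from the same limma test). For Mapk11, Mapk12 and Map2k6 the differences were -0.01, -0.10 and 0.08, with intervals from -0.37 to 0.34, from -0.37 to 0.17 and from -0.50 to 0.65. The intervals of Mapk12 and Map2k6 reach as far as their differences from DMSO, and those of the other 4 genes do not.

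The genes whose course over the 6 libraries was most like that of Mapk13 were found by distance. After centring each gene on its mean of log2(value + 1), the nearest were Nptx1 (23 and 19, 1178 and 1119, 915 and 1007 in the order DMSO, ET-3, NT), Bmp6 (0 and 0, 60 and 34, 32 and 53) and Gm20658 (0 and 2, 54 and 47, 50 and 68). Nptx1 encodes a secreted pentraxin of neurons and Bmp6 a ligand of the BMP family. Their root mean square differences from Mapk13 were 0.287, 0.321 and 0.367 on the log2 scale, and the replicate SD of Mapk13 itself was 0.289 on that scale, so that the nearest gene lay at about its own spread. The nearest genes of Mapk14, whose replicate SD was 0.0333, were Sbno1, Tmx1 and Smad4 at 0.0163, 0.0179 and 0.0202. For the other members the nearest genes were Vamp5, Plin3 and Mrpl41 for Mapk12, Praf2, Prdx6 and Rgs16 for Map2k3, Hyls1, Snapc4 and Meak7 for Mapk11, and Tmem29, Sfmbt1 and Asrgl1 for Map2k6. Within a distance of 0.1 lay 1711 genes for Mapk14, 461 for Mapk12, 235 for Map2k3, 123 for Mapk11 and 78 for Map2k6. For Mapk13 the number was 0. The genes named for the members other than Mapk13 are thus a few of many at a like distance. All these distances rest on 6 libraries that share 1 set of DMSO controls.

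The rest of the pathway was followed in 8 lists of 86 genes by role, of which 84 have a row and 81 passed the filter of a mean value of 5. With thresholds of 2-fold and an adjusted p of 0.05, 2 of the 81 rose and 9 fell with ET-3, and as many with NT, against 6.62% and 14.9% of all genes with ET-3 and 7.30% and 13.2% with NT. At the adjusted p alone, 21 rose and 36 fell with ET-3 and 22 and 35 with NT, while 30.6% and 29.7% of all genes were higher and 33.2% and 32.5% lower. These shares of all genes are the background of each list that follows. The median log2 fold change of the lists was -0.12 with ET-3 and -0.10 with NT, and that of all genes -0.01 in both. When the libraries of a treated pair were averaged into 1, 1 gene rose with either peptide and 9 fell. All p-values of pathway genes are from limma and adjusted over the 13921 genes by the Benjamini-Hochberg method. Both peptides were set against the same DMSO libraries, so their values are given side by side and not as independent repeats.

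Upstream of the MAP2Ks, 3 of 20 MAP3Ks and activators rose and 8 fell with ET-3 at the adjusted p alone, and 6 and 7 with NT. Map3k9 (MLK1), a mixed-lineage kinase, fell from 323 and 320 in DMSO to 57 and 54 in ET-3 and 55 and 66 in the NT libraries. The log2 fold changes were -2.51 and -2.40. Gadd45a, a stress-induced activator of MAP3K4, fell from 622 and 628 in DMSO to 318 and 319 in ET-3 and 270 and 267 in the NT libraries. A log2 fold change of -0.97 with ET-3 missed the 2-fold threshold, and the NT value of -1.22 passed it. Map3k6 (ASK2) rose from 89 and 74 in DMSO to 155 and 189 in ET-3 and 187 and 191 in the NT libraries, by 1.07 and 1.21. With treated pairs averaged, Map3k6 no longer passed (adjusted p = 0.0577 and 0.0539 from limma), and without the second DMSO or the second ET-3 library its ET-3 value was under 2-fold. Map3k7 (TAK1), a MAP3K of cytokine receptors, had values of 872 to 907 over all libraries and passed with neither peptide.

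Among 13 other MAP kinases and MAP2Ks tested, 0 passed both thresholds with either peptide. At the adjusted p alone, Mapk3 (ERK1), Mapk9 (JNK2), Mapk6 (ERK3) and Map2k7 rose with ET-3, and Mapk8 (JNK1) and Map2k1 (MEK1) fell. With NT, Mapk3, Mapk9 and Map2k5 (MEK5) rose and Mapk8 and Map2k1 fell, and Mapk6 and Map2k7 did not pass. The largest of these was Mapk3, at 390 and 421 in DMSO, 600 and 615 in ET-3, and 569 and 548 in the NT libraries, a log2 fold change of 0.58 and 0.46. Map2k4 (MKK4), which can also phosphorylate p38, had values of 646 and 597, 573 and 573, and 581 and 591, with log2 fold changes of -0.12 and -0.08 that did not pass. No gene of these other MAP kinase branches that was tested differed by as much as Mapk13. The set with Mapk13 was proposed with its rank against DMSO known, so nothing is read from that comparison.

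Of 10 scaffolds and partners, 2 rose and 6 fell with each peptide at the adjusted p alone. Ptpn3, the phosphatase that binds p38γ, rose from 48 and 41 in DMSO to 106 and 121 in ET-3 and 104 and 117 in the NT libraries, by 1.33 and 1.29 on the log2 scale. Cdon, a cell surface receptor that recruits p38α in myoblasts, fell with log2 fold changes of -0.22 and -0.33. Ccm2, which holds MKK3 in a complex, rose by 0.36 and 0.30.

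Of 7 phosphatases that act on p38 and were tested, 5 fell and 0 rose with each peptide at the adjusted p alone, where 33.2% of all genes fell and 30.6% rose with ET-3 and 32.5% and 29.7% with NT, with a median log2 fold change over the 7 of -0.66 and -0.60. Dusp8 fell from 503 and 590 in DMSO to 60 and 68 in ET-3 and 78 and 70 in the NT libraries, with log2 fold changes of -3.07 and -2.87. Dusp1, the early-response MAP kinase phosphatase, fell from 531 and 649 to 219 and 234 and to 227 and 205, with log2 fold changes of -1.37 and -1.44. Dusp10, Dusp16 and Ppm1b fell by smaller amounts, with log2 fold changes from -0.75 to -0.38. Ppm1a and Ppm1d had log2 fold changes from -0.07 to 0.13 that did not pass. Ptpn7, also on the list, fell under the filter of a mean value of 5 and was not tested. Its values were 1 and 1 in DMSO, 0 and 3 in ET-3, and 11 and 6 in the NT libraries.

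Of 7 kinases activated by p38, 1 rose and 3 fell with each peptide at the adjusted p alone. Mapkapk3 (MK3) fell from 254 and 229 in DMSO to 62 and 81 in ET-3 and 74 and 76 in the NT libraries, with log2 fold changes of -1.75 and -1.67. Its relative Mapkapk2 (MK2) had values of 678 to 740 in all 6 libraries, with log2 fold changes of -0.02 and -0.07 that did not pass. Mknk2, a kinase of the translation factor eIF4E, fell with log2 fold changes of -1.05 and -0.96. This lies at the 2-fold line and was under it with ET-3 when libraries were scaled to their totals (-0.96) or the second DMSO library was left out (-0.99). Rps6ka4 (MSK2) rose by 0.90 and 0.84, and Rps6ka5 (MSK1) fell, with -0.65 and -0.60. Both are kinases of histone H3 and CREB.

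All 14 transcription and chromatin substrates passed the adjusted p with both peptides, 7 higher and 7 lower, where 30.6% of all genes were higher and 33.2% lower with ET-3 and 29.7% and 32.5% with NT. Mef2c, a muscle transcription factor that p38 phosphorylates, fell from 1927 and 1930 in DMSO to 8 and 10 in ET-3 and 12 and 11 in the NT libraries, with log2 fold changes of -7.60 and -7.27. Its relatives Mef2a and Mef2d fell with log2 fold changes of -0.90 and -0.91 and of -0.68 and -0.68, and Smarcd3 (BAF60c), the remodeller subunit that p38α phosphorylates, with -0.47 and -0.58. Ddit3 (CHOP), a stress-induced factor, fell with -2.26 and -2.28. Among those that rose were Tcf3, the E protein partner of MyoD, by 0.52 and 0.41, and Ezh2, the Polycomb methyltransferase, by 0.62 and 0.53.

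Of 6 RNA-binding and cytoskeletal substrates, 3 rose and 3 fell with ET-3, and 2 and 3 with NT. Zfp36l1, which destabilises AU-rich mRNAs, fell with log2 fold changes of -1.12 and -1.03, and its NT value was under 2-fold with libraries scaled to their totals (-0.91) or to their upper quartile (-0.99), and without the second DMSO or the first NT library. Of 4 substrates described for p38δ, Prkd1 (protein kinase D1) fell with log2 fold changes of -1.25 and -1.29 and Eef2k, the kinase of elongation factor 2, with -0.54 and -0.28. Stmn1, a microtubule destabiliser, rose by 0.42 and 0.26, and Mapt had values of 3 to 12 and did not pass.

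**Figure D4:**
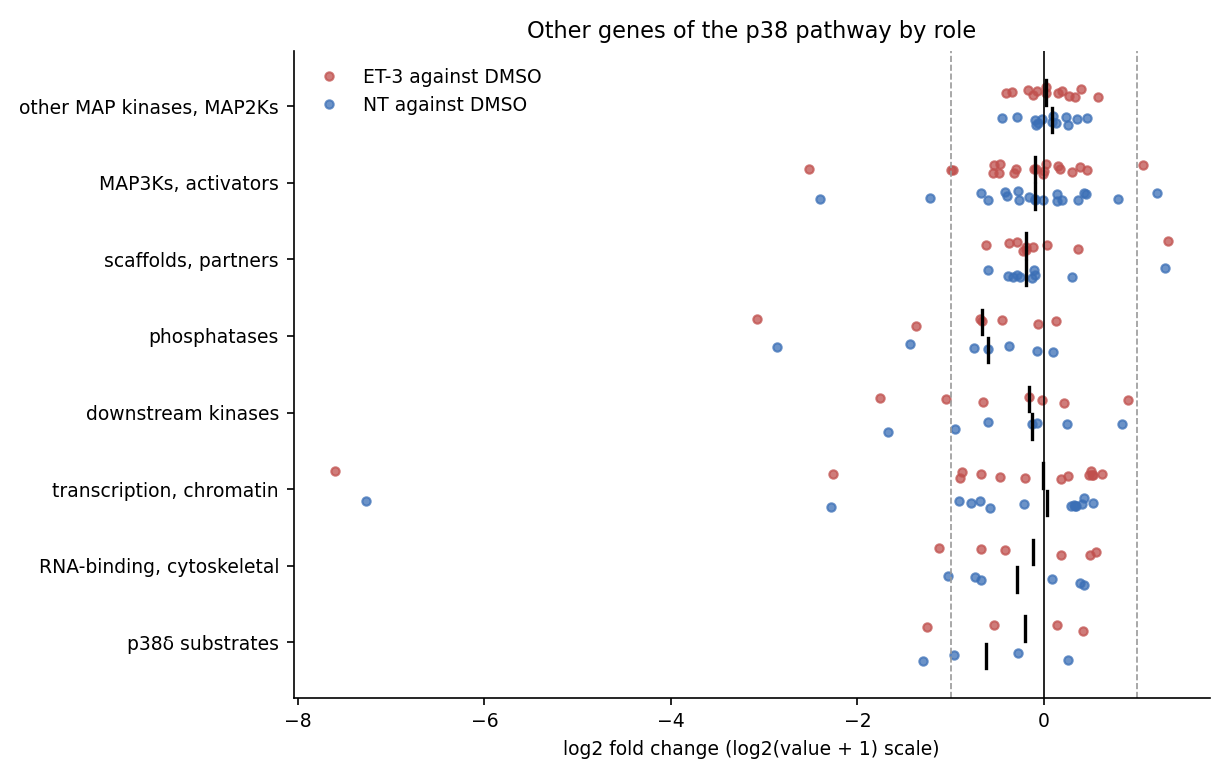
Log2 fold change (log2(value + 1) scale) of the 81 tested pathway genes with ET-3 and with NT against DMSO, by list; points are genes, black bars are list medians and dashed lines mark 2-fold. The phosphatases have the lowest median with ET-3 (-0.66) and the p38δ substrates with NT (-0.62). The latter list has 4 genes, among them Mapt at values of 3 to 12, and its median with ET-3 is -0.20. Mef2c lies lowest of all genes shown (-7.60 and -7.27), and Ptpn3 and Map3k6 are the 2 genes above 2-fold.

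The pathway values stood beside a broad fall of muscle differentiation genes. Of 10 such genes, all fell at the adjusted p with both peptides, and 9 with ET-3 and 10 with NT fell past 2-fold. Myh3, the embryonic myosin heavy chain, fell from 5115 and 5798 in DMSO to 14 and 17 in ET-3 and 32 and 15 in the NT libraries, and Actn2 from 1948 and 2122 to 8 and 11 and to 14 and 9. Ckm, the muscle creatine kinase, went from 545 and 520 to 0 in both ET-3 libraries and to 0 and 1 with NT, and Mymx, a fusion protein, from 403 and 441 to 0 and 0 and to 6 and 2. How much of the differences of p38 pathway genes moves with this fall was not tested.

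Markers of other cell types were read beside these values. The 3 of 5 epithelial markers with a row summed to 3 to 9 with DMSO and to 19 to 39 with the peptides, with Krt8 at 0 in both DMSO libraries. Of these, Krt18, a keratin of simple epithelia, was 7 and 2 in DMSO, 17 and 36 in ET-3, and 23 and 29 in the NT libraries. It rose with log2 fold changes of 2.40 and 2.45 (adjusted p = 0.00182 and 0.00165 from limma) and carried most of the sum. Cdh1 was 2 and 1 in DMSO, 0 and 1 in ET-3, and 3 and 2 in the NT libraries. Krt8 was 2 and 2 in ET-3 and 3 and 1 in the NT libraries, and Epcam and Cldn7 have no row. The 3 of 5 endothelial markers summed to 11 to 22 with DMSO and to 36 to 43 with the peptides, and the 2 of 5 macrophage markers to 21 to 45 over all libraries. The part of such cells in the values of Mapk13 was not tested. The 5 smooth muscle and pericyte markers went from 2129 to 2537 with DMSO to 744 to 912, with Myh11 at 0 in both ET-3 libraries. Notch3 (1397 and 1773 with DMSO) and Cspg4 (610 and 612) carried this sum, and neither is specific to those cells, whereas Rgs5 was 117 and 150, Myh11 4 and 1 and Kcnj8 1 and 1. Sums went for the 3 of 5 fibroadipogenic markers from 56 to 65 to 63 to 89, and for the 3 of 5 Schwann markers from 67 in both to 32 to 69.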

How the data were processed

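RNA of sorted MuSCs after culture was sequenced in 6 libraries, 2 per group, grouped by their labels. The authors aligned reads to mm10 (GRCm38) with STAR and counted them per gene with featureCounts, and the submitters' processing notes name Trimmomatic 0.38, STAR 2.7.7a, featureCounts 1.6.5 and DESeq2 1.30.0. The deposited values are a read signal in whole numbers, taken here as counts times 1 factor per library, rounded. The factors fitted here were 0.781 to 1.19, and the scaling is not described. In the second ET-3 library 33 genes stood at whole numbers that its factor of 1.09 cannot give, so the fit is not exact there. The strand setting of the counting is not given in the sources used here, and the labels and the study's methods name different library kits. Of 18943 genes, 18920 matched GENCODE vM21 by identifier, which gave positions and exon lengths.

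Because the values are scaled, limma 3.58.1 (R 4.3.3; lmFit, contrasts, eBayes with a trend) was run on log2(value + 1) of all 6 libraries in 1 fit for 13921 genes with a mean of at least 5, with Benjamini-Hochberg adjustment over these. Genes were called at an adjusted p up to 0.05, with or without a 2-fold change. The fit was tested on simulated data. The 6 genes and all lists were chosen with earlier results of these data known. In each pathway list at most 4 called genes with the largest mean change were picked for naming, and other pathway genes named were chosen after their values were seen. Nearest genes are the 3 with the smallest root mean square difference to a member. Isoform shares divide values by the union of exons. Python 3.11.15, numpy 2.4.6, pandas 2.3.3, scipy 1.17.1, biopython 1.88 and matplotlib 3.10.9 prepared sequences, tables and plots. Alternatives covered the filter, scaling, pseudocount, replicate block, groups in the fit, averaged treated pairs, gene length and each library left out. Mapk8ip2 and Ptprr were not analysed here. Some of the genes tested are not reported by name here.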

Additional observations from a re-analysis of the deposited data

Results flagged for a closer look

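Of the 81 pathway genes tested, 2 differed between the peptides with an adjusted p under 0.05 in limma (Benjamini-Hochberg), both lower with NT. Of all genes tested, 2.05% were lower and 0.647% higher at that threshold, so nothing is read from this count for the pathway. Mapk6, which encodes the atypical kinase ERK3, was lower with NT than with ET-3 by a log2 fold change of -0.24 (adjusted p = 0.0379 from limma), at 1967 and 1942 in the ET-3 and 1680 and 1624 in the NT libraries. Gadd45a, the activator of MAP3K4, was lower by -0.25 (adjusted p = 0.0468 from limma), at 318 and 319 in the ET-3 and 270 and 267 in the NT libraries. In both genes the 2 NT libraries lay below the 2 ET-3 libraries, and neither difference reached 2-fold. Both lost the call without the filter on low values (adjusted p = 0.157 for each from limma), under the replicate block (adjusted p = 0.0691 and 0.0790 from limma), in a fit of the 2 groups alone, with any 1 library left out, and when treated pairs were averaged (adjusted p = 0.712 for each from limma). Gadd45a also lost it with library totals (adjusted p = 0.0557 from limma) and with a pseudocount of 0.5 (adjusted p = 0.0516 from limma).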

How the results depend on the processing

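With 2 libraries per group and treated pairs that may each be 1 culture, errors may be too small, and the depth leaves Mapk13 with DMSO and Map2k6 on few reads. No log2 fold change of the members against DMSO reversed under the alternatives run, and none did for the genes picked by their mean change. The other pathway genes named were not followed against DMSO under these alternatives, and small log2 fold changes among them may change sign. Pathway genes called higher numbered 1 with ET-3 and 1 with NT when treated pairs were averaged, and 1 to 2 with ET-3 and 2 to 2 with NT with 1 library left out. Of the 81 pathway genes at the adjusted p alone, 21 were higher and 36 lower with ET-3, and 22 and 35 with NT. Between the peptides 2 were lower with NT, where 2.05% of all genes were. The replicate block takes same-numbered libraries as a set, though the labels give only the number. Correlations of their deviations were -0.00798, -0.0704 and -0.0217, which cannot tell whether such libraries shared a batch. Under the replicate block the counts of calls stayed at 2 and 9 with each peptide. Map2k3 then differed between the peptides by -0.22 (adjusted p = 0.0754 from limma). The calls of Mapk6 and Gadd45a between the peptides were lost under this block (adjusted p = 0.0691 and 0.0790 from limma).

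With library totals Mapk14 differed from DMSO by 0.36 and 0.36 and Map2k3 by 0.87 and 0.67, with upper quartiles Mapk14 with ET-3 by 0.32, and with pseudocount 5 Mapk13 by 4.79 and 4.67. With 1 library left out, the ranges were 5.15 to 5.83 for Mapk13 with ET-3 and 5.03 to 5.70 with NT, -0.31 to -0.038 for Mapk12 with ET-3, and 0.71 to 0.86 for Map2k3 with ET-3. Map2k3 between the peptides was called with upper quartiles (-0.24), with pseudocount 5 (-0.22) and, added after seeing the data, with a filter at a mean of 10 (-0.22). The causes were not tested.

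With the longest transcript in place of the union of exons, mean shares with DMSO, ET-3 and NT were 10.1%, 9.44% and 9.73% for Mapk11 and 27.7%, 16.2% and 15.7% for Mapk12. Those of Mapk13 with ET-3 and NT were 25.3% and 24.1%, and those of Mapk14 with DMSO and ET-3 61.5% and 49.1%. Without division by length they were 8.71%, 8.05% and 8.27% for Mapk11, 17.6% with DMSO and 9.84% with NT for Mapk12, 24.2% and 23.0% with ET-3 and NT for Mapk13, and 73.0%, 57.5% and 58.9% for Mapk14.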
